A study of Homo sapiens with 12 samples.

Results

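The 9 genes described here are the ARF GTPases ARF1, ARF3, ARF4, ARF5 and ARF6, the ArfGAPs ARFGAP1, ARFGAP2 and ARFGAP3, and the exchange factor GBF1. They were taken by name from the 26364 genes of each deposited table, and all 9 were found in all 4 tables and passed the filter on low values. mRNA was sequenced from 12 libraries of HMLE cells, human mammary epithelial cells immortalised in culture, in 4 groups of 3 biological replicates. The groups were HMLE-Twist cells given 0.2 uM salinomycin, HMLE-Twist cells given the DMSO mock, HMLE-pBp cells given 0.2 uM salinomycin, and HMLE-pBp cells given the mock, all for 24 hours. Salinomycin is a potassium ionophore. The labels put HMLE-Twist under the phenotype EMT (epithelial to mesenchymal transition) and HMLE-pBp under nonEMT. Each phenotype is represented by 1 line, so phenotype and line cannot be told apart.

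ARF GTPases are small proteins that switch membrane traffic on and off. A guanine nucleotide exchange factor such as GBF1 loads them with GTP at the Golgi, they then recruit coats such as COPI, which carries cargo back towards the ER, and an ArfGAP makes them hydrolyse the GTP so that the coat can be released. ARF1, ARF3, ARF4 and ARF5 act mainly at the Golgi and endosomes, and ARF6 acts at the plasma membrane. ARFGAP1, ARFGAP2 and ARFGAP3 are the ArfGAPs that work with the COPI coat. ARF4 is known from other cells as a target of the membrane-bound transcription factor CREB3 during Golgi stress.

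Recovered depth was 17.91 to 26.73 megareads per library. Levels are FPKM, reads scaled for gene length and library depth, rebuilt on 1 scale from recovered reads, and their means are given ± the SD of 3 libraries. TWIST1 averaged 902 ± 242 FPKM in HMLE-Twist with salinomycin and 708 ± 335 FPKM in HMLE-Twist mock, against 2.11 ± 0.270 and 2.48 ± 0.0345 FPKM in HMLE-pBp with salinomycin and mock (SD, n = 3 each). The epithelial marker CDH1 was at 0.0632 ± 0.0784 and 0.0588 ± 0.0331 FPKM in HMLE-Twist with salinomycin and mock, against 178 ± 10.1 and 166 ± 5.61 FPKM in HMLE-pBp with salinomycin and mock. The 9 epithelial markers summed to no more than 8.98 FPKM in any HMLE-Twist library, so the defining markers of breast epithelium were near 0 there. In HMLE-pBp they summed to 2623 to 2793 FPKM with salinomycin and to 2988 to 3466 FPKM in the mock. The 9 mesenchymal markers, TWIST1 among them, summed to 4466 to 5206 FPKM in HMLE-Twist with salinomycin and to 3677 to 4567 FPKM in the mock, and those groups overlapped. In HMLE-pBp the same markers summed to 281 to 340 FPKM with salinomycin and to 283 to 317 FPKM in the mock. The 4 leukocyte markers with a settled length summed to 8.86 to 17.5 FPKM in HMLE-pBp with salinomycin and to 21.2 to 31.7 FPKM in the mock, and the 5 endothelial markers to at most 1.83 FPKM in any library. Where these sums moved with treatment, their part in the results below was not tested. These are bulk libraries, in which fewer cells of a type and less RNA per cell cannot be told apart.

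In HMLE-Twist cells salinomycin raised 5 of the 9 genes and lowered 1, at a Benjamini-Hochberg adjusted p under 0.05 in a limma fit of log2(FPKM + 1) over 12047 genes. Log2 fold changes below are on that scale, salinomycin over mock, with the SE of the fit after the ± sign. Of all genes tested, 26.5% were called in this comparison, 12.9% as higher and 13.6% as lower. In HMLE-pBp cells salinomycin raised 5 and lowered none, where 19.1% of all genes were called, 9.68% as higher and 9.45% as lower. With the replicate number as a block within each line, 7 of the 9 genes were called in HMLE-Twist, 6 in HMLE-pBp and 3 for the difference of the responses, while the counts over all genes were 4888, 4446 and 3910, against 3191, 2304 and 1636 without it. The same 5 genes rose in both lines, namely ARF1, ARF4, ARFGAP1, ARFGAP3 and GBF1. The 9 genes had a median log2 fold change of 0.57 in HMLE-Twist and 0.41 in HMLE-pBp, while that of all genes tested was -0.013 in both. ARF3, ARF5 and ARF6 did not pass the test in either line, and ARFGAP2 fell in HMLE-Twist. With the block, ARF6 passed as higher in both lines.

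**Figure D1:**
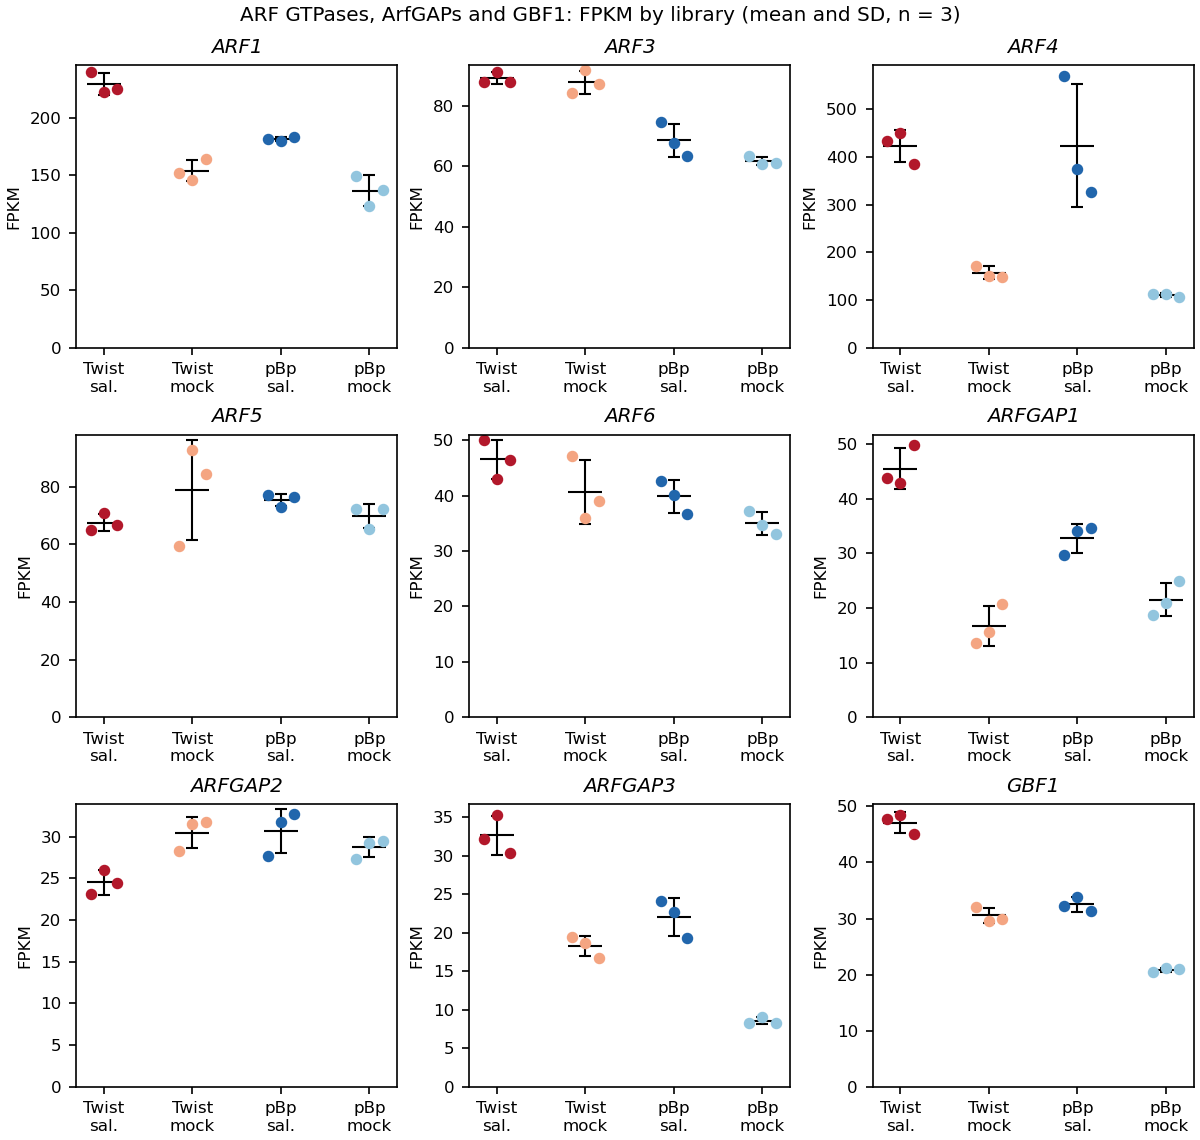
FPKM of each gene (vertical axes, from 0) in the 3 libraries of each group, as points, with the group mean and SD as bars. The salinomycin points of ARF1, ARF4, ARFGAP1, ARFGAP3 and GBF1 lie above the mock points of the same line. HMLE-pBp salinomycin replicate 1 stands apart for ARF4, at 569 FPKM.

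Promoter windows from RefSeq (GRCh38.p14) were held for 7 of the 9 genes, in 10 windows of 250 bases before a start site. ARF4 and ARFGAP1 had no entry. The core of the Golgi stress element (ACGTGGC) and that of the unfolded protein response element (TGACGTG) were searched on both strands. They can overlap, and in the first ARF1 window they do, 16 bases before the start. That window is shown with the match in capitals. The windows of ARFGAP3, which rose, and ARFGAP2, which did not rise, are shown as a paralog pair without a match.
ARF1, chr1:228082458-228082707, plus strand: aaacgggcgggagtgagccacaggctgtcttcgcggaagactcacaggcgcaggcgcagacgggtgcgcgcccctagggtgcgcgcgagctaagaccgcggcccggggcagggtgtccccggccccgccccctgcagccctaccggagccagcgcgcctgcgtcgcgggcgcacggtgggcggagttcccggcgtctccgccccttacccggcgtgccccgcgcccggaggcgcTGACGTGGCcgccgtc
ARFGAP3, chr22:42857274-42857523, minus strand: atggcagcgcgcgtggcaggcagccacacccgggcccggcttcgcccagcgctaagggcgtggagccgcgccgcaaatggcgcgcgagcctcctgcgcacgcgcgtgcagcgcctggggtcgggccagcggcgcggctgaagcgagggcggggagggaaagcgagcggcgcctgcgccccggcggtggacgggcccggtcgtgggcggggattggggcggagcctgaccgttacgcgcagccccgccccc
ARFGAP2, chr11:47176880-47177129, minus strand: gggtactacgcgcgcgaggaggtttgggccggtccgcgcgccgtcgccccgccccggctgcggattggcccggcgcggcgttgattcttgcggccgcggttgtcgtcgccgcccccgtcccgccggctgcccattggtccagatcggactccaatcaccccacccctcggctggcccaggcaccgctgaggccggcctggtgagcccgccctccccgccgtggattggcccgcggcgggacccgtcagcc
ACGTGGC occurred in 2.78% and TGACGTG in 1.68% of all 35116 windows. CCAAT and CCACG, the parts of the ER stress element, are common letters, found on either strand in 32% and 33.5% of windows. ARFGAP2 held 4 matches to CCAAT and 1 to CCACG, ARFGAP3 held 1 to CCAAT and 3 to CCACG, and ARF6 held 3 to CCACG. The first ARF1 window held 1 to CCACG, inside the capitals shown above. The later ARF1 windows had a match to CCACG only past the start. The first GBF1 window held 1 to CCACG, and the second held 4 to CCAAT. The second GBF1 window also had a match to CCACG, but past its start and overlapping the match shown next. In GBF1 a match to TGACGTG lay on the minus strand just past a start site, shown here in capitals within 25 bases.
GBF1, chr10:102245529-102245553, plus strand: gctagttacCACGTCAgtgagctga
The windows of ARF3, ARF5 and ARF6 held neither core. A match is a run of letters and no evidence of binding.

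Among the GTPases, ARF4 had the largest log2 fold change in both lines. ARF4 had 434, 450 and 386 FPKM in HMLE-Twist with salinomycin, against 172, 151 and 148 FPKM in the mock. Its HMLE-pBp libraries had 569, 375 and 326 FPKM with salinomycin, against 113, 113 and 107 FPKM in the mock. Every treated library lay above every mock library of its line. The log2 fold change was 1.43 ± 0.16 (SE, adjusted p = 8.2e-05) in HMLE-Twist and 1.88 ± 0.16 (adjusted p = 2.43e-05) in HMLE-pBp, where ARF4 ranked 7 of 12047 genes by fold change. The HMLE-pBp group spread widely, with a coefficient of variation of 30.4%, and its replicate 1 held 20742 ARF4 reads against 12333 and 11262 in the others. Without that library the log2 fold change in HMLE-pBp was 1.64 (adjusted p = 9.33e-06). The difference of the responses, HMLE-Twist minus HMLE-pBp, was -0.45 ± 0.23 (95% interval -0.95 to 0.04, adjusted p = 0.193) and did not pass the test.

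ARF1, the best-studied recruiter of the COPI coat, changed less. It had 240, 223 and 225 FPKM in HMLE-Twist with salinomycin, against 152, 146 and 164 FPKM in the mock. In HMLE-pBp it had 181, 180 and 184 FPKM with salinomycin, against 150, 123 and 137 FPKM in the mock. The groups did not overlap in either line. ARF1 rose by 0.57 ± 0.080 on the log2 scale in HMLE-Twist (adjusted p = 0.000335) and by 0.41 ± 0.080 in HMLE-pBp (adjusted p = 0.00463), with a difference of responses of 0.16 (95% interval -0.09 to 0.41).

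The remaining GTPases did not pass the test in either line. ARF3, the closest relative of ARF1, averaged 89.1 ± 1.94 FPKM in HMLE-Twist with salinomycin and 87.7 ± 3.86 FPKM in the mock, a log2 fold change of 0.02 (95% interval -0.14 to 0.18). In HMLE-pBp it averaged 68.5 ± 5.58 FPKM with salinomycin and 61.8 ± 1.39 FPKM in the mock, a log2 fold change of 0.14 (95% interval -0.01 to 0.30), although these groups did not overlap. ARF5, which like ARF4 is a class II ARF, had 65.2, 70.9 and 66.8 FPKM in HMLE-Twist with salinomycin, against 59.6, 92.8 and 84.5 FPKM in the mock. Its mock replicate 1 was the lowest library of that line, and the 2 groups overlapped. The log2 fold change of ARF5 was -0.20 (95% interval -0.48 to 0.09) in HMLE-Twist and 0.11 (95% interval -0.17 to 0.39) in HMLE-pBp, where treated libraries (75.5 ± 2.16 FPKM) lay above mock libraries (69.9 ± 4.06 FPKM). Without HMLE-Twist mock replicate 1, ARF5 passed the test as lower in HMLE-Twist at -0.39 (adjusted p = 0.00346), and the difference of responses passed too at -0.50 (adjusted p = 0.00964).

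ARF6, the plasma membrane member, averaged 46.5 ± 3.54 FPKM in HMLE-Twist with salinomycin and 40.7 ± 5.79 FPKM in the mock. It averaged 39.8 ± 2.97 FPKM in HMLE-pBp with salinomycin and 35.0 ± 2.09 FPKM in the mock. The groups overlapped in both lines. Its log2 fold change was 0.20 (95% interval -0.03 to 0.42) in HMLE-Twist, and that in HMLE-pBp was 0.18 (95% interval -0.05 to 0.41). With the replicate number as a block within each line, ARF6 passed as higher in HMLE-Twist (adjusted p = 0.0321) and in HMLE-pBp (adjusted p = 0.0454). It also passed in HMLE-Twist without mock replicate 1, at 0.30 (adjusted p = 0.0295).

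**Figure D2:**
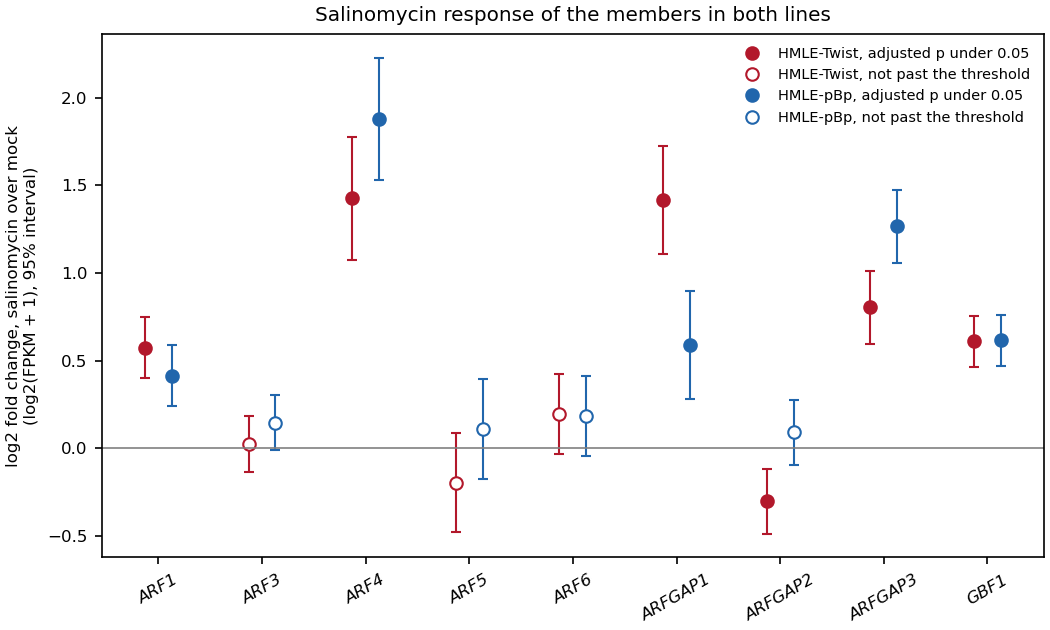
Log2 fold change of salinomycin over mock (vertical axis, log2(FPKM + 1) scale) for each gene in HMLE-Twist (red) and HMLE-pBp (blue), with 95% intervals from the limma fit. Filled points passed an adjusted p of 0.05. ARFGAP1 lies higher in HMLE-Twist, at 1.42 against 0.59 in HMLE-pBp, and ARFGAP3 lower, at 0.80 against 1.27.

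Of the 3 ArfGAPs, ARFGAP1 and ARFGAP3 rose in both lines, and ARFGAP2 fell in HMLE-Twist. ARFGAP1 had 43.8, 42.9 and 49.8 FPKM in HMLE-Twist with salinomycin, against 13.7, 15.5 and 20.7 FPKM in the mock. It had 29.6, 34.0 and 34.5 FPKM in HMLE-pBp with salinomycin, against 18.8, 20.9 and 24.8 FPKM in the mock. The groups did not overlap in either line, and the gap was wider in HMLE-Twist. Its log2 fold change was 1.42 ± 0.14 in HMLE-Twist (adjusted p = 4.18e-05) and 0.59 ± 0.14 in HMLE-pBp (adjusted p = 0.0143). The call in HMLE-pBp was lost without HMLE-pBp mock replicate 1 (adjusted p = 0.0549).

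ARFGAP2, a GAP that binds the COPI coat, had 23.1, 26.0 and 24.5 FPKM in HMLE-Twist with salinomycin, against 28.3, 31.5 and 31.7 FPKM in the mock. All treated HMLE-Twist libraries lay below all mock libraries of that line. It fell by 0.30 on the log2 scale (SE 0.085, adjusted p = 0.0199). That call was lost without HMLE-Twist salinomycin replicate 1 (adjusted p = 0.0862), salinomycin replicate 3 (0.0633), mock replicate 2 (0.0676) or mock replicate 3 (0.05001), and with only the libraries compared in the fit (0.0650). In HMLE-pBp ARFGAP2 had 27.7, 31.7 and 32.7 FPKM with salinomycin, against 27.4, 29.3 and 29.5 FPKM in the mock, and these groups overlapped. The log2 fold change there was 0.09 (95% interval -0.09 to 0.28).

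ARFGAP3, whose promoter window stands above beside that of its closest paralog ARFGAP2, had 32.2, 35.3 and 30.4 FPKM in HMLE-Twist with salinomycin, against 19.4, 18.6 and 16.8 FPKM in the mock. It had 24.2, 22.7 and 19.4 FPKM in HMLE-pBp with salinomycin, against 8.31, 9.07 and 8.32 FPKM in the mock. The groups were apart in both lines. ARFGAP3 rose by 0.80 ± 0.096 in HMLE-Twist (adjusted p = 0.000122) and by 1.27 ± 0.096 in HMLE-pBp (adjusted p = 1e-05).

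GBF1, the exchange factor of the early Golgi, had 47.8, 48.5 and 45.0 FPKM in HMLE-Twist with salinomycin, against 32.1, 29.6 and 29.9 FPKM in the mock. It had 32.3, 33.9 and 31.4 FPKM in HMLE-pBp with salinomycin, against 20.5, 21.2 and 21.0 FPKM in the mock. No treated library overlapped the mock of its line. GBF1 rose by 0.61 ± 0.068 in HMLE-Twist (adjusted p = 7.54e-05) and by 0.61 ± 0.068 in HMLE-pBp (adjusted p = 0.000149), and the difference of the responses was -0.01 (95% interval -0.21 to 0.20).

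The responses of the 2 lines differed for 3 of the 9 genes, all of them ArfGAPs, where 13.6% of all genes tested were called, 6.95% as higher and 6.63% as lower. ARFGAP1 responded more in HMLE-Twist, by 0.83 ± 0.20 on the log2 scale (adjusted p = 0.0209, and 0.00156 with the block). ARFGAP2 (-0.39 ± 0.12, adjusted p = 0.0491) and ARFGAP3 (-0.46 ± 0.14, adjusted p = 0.0435) had lower log2 responses in HMLE-Twist. The count of 3 genes dropped to 0 without HMLE-Twist salinomycin replicate 3, HMLE-Twist mock replicate 2 or HMLE-pBp mock replicate 3, and to 1 without HMLE-Twist salinomycin replicate 1, HMLE-pBp salinomycin replicate 2, HMLE-pBp mock replicate 1 or HMLE-pBp mock replicate 2. The adjusted p of ARFGAP1 was at most 0.0590 in the 21 alternatives run, that of ARFGAP2 at most 0.122 and that of ARFGAP3 at most 0.118.

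The ratio of 2 paralogs within a library depends little on the scaling between libraries, and only through the 1 added to each FPKM. The change of that ratio, on the log2(FPKM + 1) scale, with salinomycin was tested over both lines by an exact permutation of the treatment within each line (two-sided, 400 regroupings, smallest possible p = 0.005), for 13 pairs. In 9 pairs the ratio changed at that smallest p (adjusted p = 0.00722 over the 13 pairs). With the replicate numbers kept as pairs within each line, an exact sign-flip test gave the same 9 pairs its own smallest p of 0.03125 (64 regroupings, adjusted p = 0.0451), a test added after seeing the data. These were the 4 pairs with ARF4, the pairs of ARF1 with ARF3, ARF5 and ARF6, and the pairs of ARFGAP2 with ARFGAP1 and with ARFGAP3. Pairs that share a gene are not independent, so the 9 pairs are not separate results. With fewer pairs tied at its smallest p, the sign-flip test would have passed none of them at an adjusted p of 0.05. The design allows no lower p, and within 1 line 3 against 3 libraries cannot go below 0.10.

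On the linear scale, ARF1 stood at 0.552, 0.495 and 0.585 of the FPKM of ARF4 in HMLE-Twist with salinomycin, against 0.880, 0.968 and 1.11 in the mock. In HMLE-pBp the ratio was 0.318, 0.480 and 0.564 with salinomycin, against 1.33, 1.08 and 1.28 in the mock. The ratio thus lay on either side of 1 in HMLE-Twist mock cells and above 1 in HMLE-pBp mock cells, and ARF4 exceeded ARF1 in each of the 6 treated libraries. The log2 ratio of ARF1 to ARF4 fell by 0.85 in HMLE-Twist and by 1.47 in HMLE-pBp. The ratio of ARF1 to ARF3 moved the other way, by 0.55 in HMLE-Twist and 0.27 in HMLE-pBp. No change passed among ARF3, ARF5 and ARF6, whose 3 pairs had an exact permutation p of 0.21 to 0.23 (adjusted p = 0.249).

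**Figure D3:**
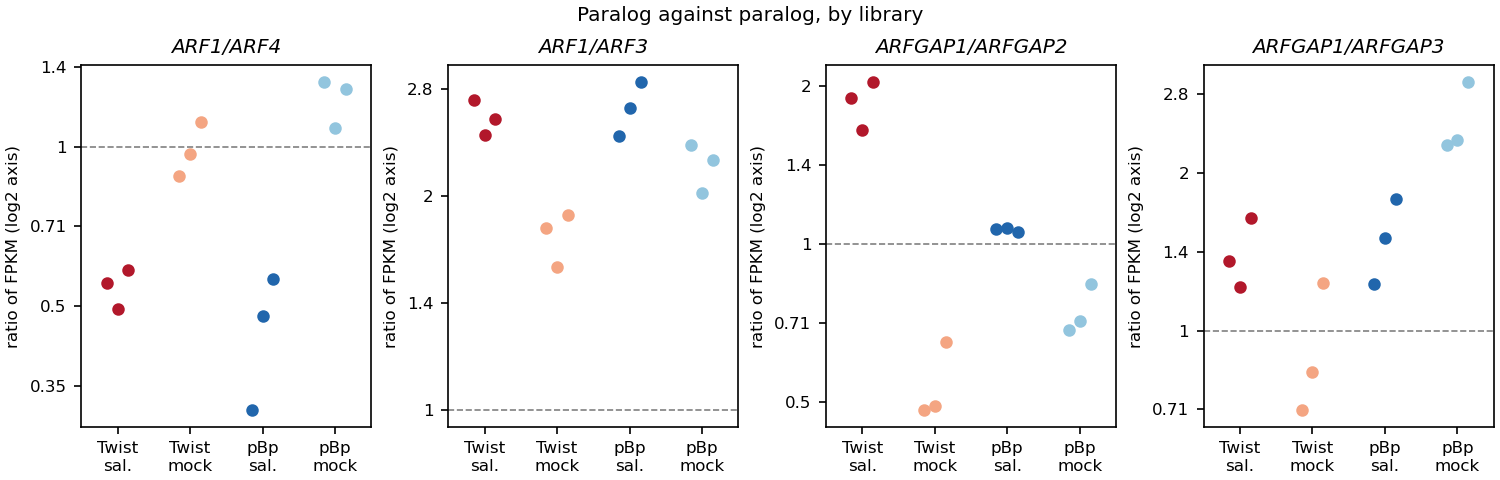
Ratio of the FPKM of 2 paralogs in each library (vertical axes on a log2 scale, the dashed line marks equal FPKM), by group. Each point is 1 library. On the recovered lengths ARFGAP1 exceeded ARFGAP2 in the 6 treated libraries and lay below it in the 6 mock libraries, and on reference lengths 1 of these 6, HMLE-pBp mock replicate 3, stood at 1.03.

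ARFGAP1 stood at 1.90, 1.65 and 2.04 times the FPKM of ARFGAP2 in HMLE-Twist with salinomycin, against 0.483, 0.493 and 0.652 times in the mock. The ratio was 1.07, 1.07 and 1.06 in HMLE-pBp with salinomycin, against 0.686, 0.714 and 0.841 in the mock. ARFGAP1 thus stood above ARFGAP2 in all 6 treated libraries and below it in all 6 mock libraries on the recovered lengths. On reference lengths the ratio in HMLE-pBp mock replicate 3 was 1.03, so the order there depends on the length used. The ratio had a log2 change of 1.72 in HMLE-Twist and 0.50 in HMLE-pBp. The log2 ratio of ARFGAP2 to ARFGAP3 fell by 1.11 in HMLE-Twist and by 1.18 in HMLE-pBp. For ARFGAP1 to ARFGAP3 the log2 change was 0.61 in HMLE-Twist, where the groups overlapped, and -0.68 in HMLE-pBp, where they did not. Taken as same-numbered pairs, the change was above 0 in 3 of 3 HMLE-Twist pairs (0.41 to 0.91) and below 0 in 3 of 3 HMLE-pBp pairs (-0.81 to -0.56). The exact permutation p over both lines, whose mean change was -0.03, was 0.90, and the difference between the lines in this ratio was not tested.

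The make-up of both families is given as the share of each gene in the summed FPKM. ARF4 supplied 49.4 ± 1.89% of the summed FPKM of the 5 ARFs in HMLE-Twist with salinomycin and 30.3 ± 2.78% in the mock (SD, n = 3). In HMLE-pBp it supplied 52.9 ± 6.60% with salinomycin and 26.8% in the mock, with libraries from 25.9% to 28.6%. The sum itself was 856 ± 38.0 FPKM in HMLE-Twist with salinomycin and 518 ± 3.76 FPKM in the mock, and 789 ± 137 FPKM in HMLE-pBp with salinomycin and 414 ± 19.5 FPKM in the mock. The larger ARF4 share went with a larger sum, and the share of each other ARF was lower on average in treated than in mock cells of both lines.

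Among the ArfGAPs, ARFGAP2 made up 23.9 ± 0.944% of the summed FPKM in HMLE-Twist with salinomycin and 46.6 ± 1.16% in the mock. In HMLE-pBp it made up 35.9 ± 1.90% with salinomycin and 48.9 ± 1.63% in the mock. ARFGAP1 held 44.3 ± 3.24% in HMLE-Twist with salinomycin and 25.3 ± 4.06% in the mock, but 38.2 ± 1.77% and 36.5 ± 2.76% in HMLE-pBp with salinomycin and mock, where the libraries overlapped. ARFGAP3 held 31.8 ± 2.51% in HMLE-Twist with salinomycin and 28.1 ± 3.69% in the mock, where the libraries overlapped, and 25.9 ± 3.66% in HMLE-pBp with salinomycin and 14.6 ± 1.16% in the mock. These shares are descriptions and carry no test.

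**Figure D4:**
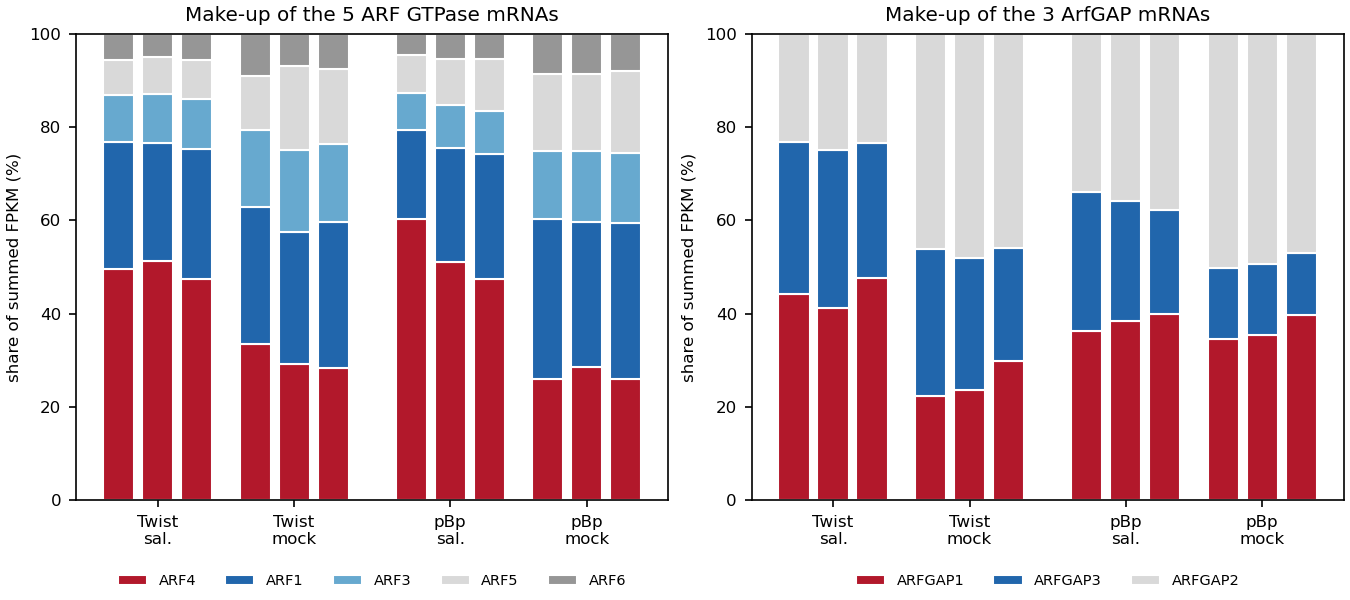
Share of each gene in the summed FPKM of the 5 ARF GTPases (left) and of the 3 ArfGAPs (right), in percent, with 1 bar for each library. ARF4 (red, left) fills 47.5% to 60.3% of the ARF sum in treated libraries and 25.9% to 33.5% in mock libraries.

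Between the lines, HMLE-Twist mock cells had more ARF3 (log2 difference 0.50, adjusted p = 5.13e-05), ARF4 (0.49, 0.0148), ARFGAP3 (1.01, 1.18e-06) and GBF1 (0.53, 1.71e-05) than HMLE-pBp mock cells. ARFGAP1 was lower, at -0.36 (adjusted p = 0.0349), although its libraries overlapped. That last call was lost without HMLE-Twist mock replicate 1 (0.154) or 2 (0.102), without HMLE-pBp mock replicate 2 (0.0616) or 3 (0.147), with no filter (0.0527), with only the libraries compared (0.0716) and with total reads as the scaling (0.171). ARF1 (0.17, adjusted p = 0.0662) passed without HMLE-pBp mock replicate 1 (0.0212), with TPM (0.0343) and with total reads (0.00438). ARF6 (0.20, adjusted p = 0.0949) passed without HMLE-Twist mock replicate 2 (0.0320) and with total reads (0.00824), ARF5 (0.15, adjusted p = 0.314) without HMLE-Twist mock replicate 1 (0.00140), and ARFGAP2 (0.08, adjusted p = 0.392) with total reads (0.0261). The background is wide here, since 73.3% of all genes tested differed between the mock groups, 36.1% as higher and 37.2% as lower, so 5 of 9 genes is no more than the general share.

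Under salinomycin, 6 of the 9 genes differed between the lines, where 63.4% of all genes tested did, 31.3% as higher and 32.1% as lower. ARF1 (0.33, adjusted p = 0.00284), ARF3 (0.38, 0.000644), ARFGAP1 (0.46, 0.0128), ARFGAP3 (0.55, 0.000318) and GBF1 (0.52, 2.52e-05) were higher in HMLE-Twist, and ARFGAP2 was lower (-0.31, 0.00669). ARFGAP1 was lost without HMLE-Twist salinomycin replicate 3 (adjusted p = 0.0512). ARFGAP2 was lost with total reads as the scaling (0.102). ARF6 (0.22, adjusted p = 0.0866) lay higher in each HMLE-Twist library and passed without HMLE-Twist mock replicate 1 (0.0271) and with total reads (0.00823). ARF4 averaged 423 ± 33.7 FPKM in HMLE-Twist with salinomycin and 423 ± 129 FPKM in HMLE-pBp with salinomycin, and its log2 difference of 0.04 (95% interval -0.31 to 0.39) did not pass. Without HMLE-pBp salinomycin replicate 1 it passed at 0.27 (adjusted p = 0.0292).

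By level, ARF4 led in treated cells of both lines, followed by ARF1. In HMLE-Twist mock cells ARF4 (157 ± 13.4 FPKM) and ARF1 (154 ± 9.20 FPKM) overlapped, and in HMLE-pBp mock cells ARF1 (137 ± 13.3 FPKM) lay above ARF4 (111 ± 3.57 FPKM). ARF3 and ARF5 came next in each group, and their libraries overlapped in HMLE-Twist mock cells and in HMLE-pBp cells with salinomycin. Further down, the libraries of GBF1, ARF6 and ARFGAP1 overlapped in HMLE-Twist with salinomycin and those of GBF1 and ARFGAP2 in HMLE-Twist mock. Those of ARFGAP1, GBF1 and ARFGAP2 overlapped in HMLE-pBp with salinomycin, and those of ARFGAP1 and GBF1 in HMLE-pBp mock. The lowest of the 9 was ARFGAP2 in HMLE-Twist with salinomycin (24.5 ± 1.48 FPKM), ARFGAP1 in HMLE-Twist mock (16.6 ± 3.64 FPKM), and ARFGAP3 in HMLE-pBp with salinomycin (22.1 ± 2.46 FPKM) and mock (8.57 ± 0.436 FPKM). ARFGAP1 and ARFGAP3 overlapped in HMLE-Twist mock cells. Such levels rest on the gene length recovered from the tables, which was 0.726 of the longest reference transcript for ARF5, 0.862 for ARF3 and 1.24 for ARFGAP1, and close to 1 for the other genes.

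Coding identity was 61.6% to 83.8% between the ARFs, highest for ARF1 with ARF3, and 47.5% to 60.3% between the ArfGAPs. In the transcript searched for each gene, no stretch of 75 bases was shared between any 2 of the 9 genes. That transcript had 2776 bases for ARFGAP1 and 1103 for ARF5. The longest reference transcripts have 3467 and 1509 bases, so part of these 2 genes was not searched. ARF3 shared 13.8% of its stretches with 2 other genes, both overlapping it on the same strand. ARF5 shared 21.7% with FSCN3 and ARFGAP3 2.95% with PACSIN2. Reads of these shared parts could be counted to either gene. ARFGAP2 overlaps C11orf49 on the opposite strand over 87 bases, and whether the counting used strand is not stated.

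Related genes were examined as 6 lists. Their counts are set beside the same background, 26.5% of all genes in HMLE-Twist and 19.1% in HMLE-pBp. The COPI coat, which ARF1 recruits, rose nearly as a whole. Of its 8 tested subunits, 7 rose in HMLE-Twist and 8 in HMLE-pBp, with median log2 fold changes of 0.79 and 0.93. COPA, the alpha subunit, averaged 120 ± 9.24 FPKM in HMLE-Twist with salinomycin and 51.9 ± 4.02 FPKM in the mock. COPG1, the gamma subunit, rose by 1.17 ± 0.071 in HMLE-Twist (adjusted p = 1.75e-06) and by 1.22 ± 0.071 in HMLE-pBp (adjusted p = 1.89e-06). COPZ1, a zeta subunit named after its values were seen, was the subunit that did not pass in HMLE-Twist, at 0.14 (adjusted p = 0.254). The difference of the responses passed for none of the 8 subunits.

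The other exchange factors did not move as one. Of 11 tested, 3 rose and 1 fell in HMLE-Twist, and 3 rose and 2 fell in HMLE-pBp. CYTH2, named after its values were seen, rose in both lines. Its log2 fold change was 0.40 in HMLE-Twist (adjusted p = 0.00793) and 0.44 in HMLE-pBp (adjusted p = 0.00707). Its calls in the alternatives are not given here. ARFGEF2, an exchange factor of the trans-Golgi, rose by 0.48 ± 0.13 in HMLE-Twist (adjusted p = 0.0169), a call lost without salinomycin replicate 1 (0.0698) or 2 (0.0547) or mock replicate 2 (0.0614) or 3 (0.0544) of that line. IQSEC2 rose there by 0.48 ± 0.085 (adjusted p = 0.00158), at 2.31 ± 0.193 FPKM with salinomycin and 1.37 ± 0.0542 FPKM in the mock. CYTH3, a cytohesin that acts at the plasma membrane, fell by 0.31 there (adjusted p = 0.00776, and 0.0552 with only the libraries compared). In HMLE-pBp, ARFGEF3 rose by 0.61 ± 0.10 (adjusted p = 0.00231) and FBXO8 by 0.49 (0.0176), while IQSEC1 (-0.33, 0.0363) and CYTH1 (-0.32, 0.0126) fell. Levels of ARFGEF3 and IQSEC1 there were near the filter of 1 FPKM. ARFGEF3 averaged 2.45 ± 0.536 FPKM with salinomycin and 1.25 ± 0.125 FPKM in the mock. IQSEC1 averaged 1.59 ± 0.188 FPKM with salinomycin and 2.25 ± 0.215 FPKM in the mock. FBXO8 lost its call without HMLE-pBp salinomycin replicate 1 (0.0566) or mock replicate 2 (0.0610) or 3 (0.0778). IQSEC1 lost it in 8 alternatives, among them each HMLE-pBp library left out except salinomycin replicate 3 (0.0630 to 0.147).

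Of 17 other ArfGAPs tested, 2 rose and 2 fell in HMLE-Twist, and 1 rose and 2 fell in HMLE-pBp, no more than the general share in either line. ARAP1 rose by 0.62 (adjusted p = 0.00262) and AGAP3 by 0.55 (0.00840) in HMLE-Twist, where AGFG2 (-0.45, 0.0160) and SMAP2 (-0.29, 0.0141) fell. In HMLE-pBp, SMAP1 rose by 0.52 (0.0220), and GIT1, a scaffold at focal adhesions, fell by 0.56 (0.00462), as did ARAP3 by 0.32 (0.0199). Without HMLE-Twist salinomycin replicate 1 the calls of AGFG2 (0.0640) and SMAP2 (0.0626) were lost, and that of AGFG2 also without mock replicate 2 (0.0676). With only the libraries compared in the fit, AGFG2 (0.0520) and SMAP2 (0.0561) lost their calls as well. Without HMLE-pBp salinomycin replicate 1, mock replicate 2 or mock replicate 3 those of SMAP1 (0.0802 to 0.0852) and ARAP3 (0.0587 to 0.0667) were lost, and that of ARAP3 also without mock replicate 1 (0.0544).

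Of 18 ARF-like and SAR GTPases, 3 rose and 1 fell in HMLE-Twist, and 2 rose and 1 fell in HMLE-pBp. These counts are no more than the general share in either line. ARL1, an ARF-like GTPase of the trans-Golgi, rose by 0.79 ± 0.16 in HMLE-Twist (adjusted p = 0.00299) and by 1.19 ± 0.16 in HMLE-pBp (adjusted p = 0.000435). SAR1A, which assembles the COPII coat at the ER, rose by 0.65 ± 0.071 in HMLE-Twist (adjusted p = 6.64e-05) and by 0.64 ± 0.071 in HMLE-pBp (adjusted p = 0.000163). ARL15 fell by 0.77 in HMLE-Twist (adjusted p = 0.000436).

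Of 14 effectors (GGA adaptors, arfaptins, AP-1 and PI4KB), 1 rose and 3 fell in HMLE-Twist, and 2 rose and 1 fell in HMLE-pBp. Both counts are near the general share. ARFIP2 rose by 0.51 in HMLE-Twist (adjusted p = 0.000946). AP1S3, a small AP-1 subunit, averaged 2.03 ± 0.0539 FPKM there with salinomycin and 5.31 ± 2.09 FPKM in the mock, and fell by 1.01 (adjusted p = 0.00148). AP1M2, the epithelial AP-1 mu subunit, was also called as lower there (-0.42, 0.00521), but at levels below the filter of 1 FPKM, 0.182 ± 0.0973 FPKM with salinomycin and 0.578 ± 0.0674 FPKM in the mock, having passed that filter through HMLE-pBp (37.2 ± 3.22 and 31.1 ± 1.56 FPKM with salinomycin and mock). In HMLE-pBp, ARFIP1 rose by 0.37 (0.0166), AP1M1 by 0.29 (0.0392) and GGA2 fell by 0.48 (0.00301). ARFIP1 lost its call without HMLE-pBp salinomycin replicate 1 or 2 or mock replicate 1 or 3 (0.0503 to 0.0616). AP1M1 lost it in 10 alternatives, among them each HMLE-pBp library left out except mock replicate 1 (0.0757 to 0.154).

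Of 7 factors linked to Golgi or ER stress, 3 rose and 1 fell in HMLE-Twist, and 2 rose in HMLE-pBp. CREB3 averaged 61.9 ± 4.35 FPKM in HMLE-Twist with salinomycin and 31.9 ± 2.76 FPKM in the mock, and 87.3 ± 16.4 FPKM in HMLE-pBp with salinomycin and 37.0 ± 1.72 FPKM in the mock. It rose by 0.94 ± 0.12 in HMLE-Twist (adjusted p = 0.000195) and by 1.20 ± 0.12 in HMLE-pBp (adjusted p = 7.6e-05). XBP1, a transcription factor of the unfolded protein response, rose by 0.91 in HMLE-Twist (adjusted p = 0.000462) and by 0.89 in HMLE-pBp (adjusted p = 0.000936). CREB3L1, a relative of CREB3, averaged 19.9 ± 2.70 FPKM in HMLE-Twist with salinomycin and 32.8 ± 4.83 FPKM in the mock, and fell by 0.69 (adjusted p = 0.00124). In HMLE-pBp it was near 0 in both groups. TFE3, which binds the Golgi stress element and was named after its values were seen, did not pass in HMLE-Twist (0.16, adjusted p = 0.204) or HMLE-pBp (0.18, 0.173).

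**Figure D5:**
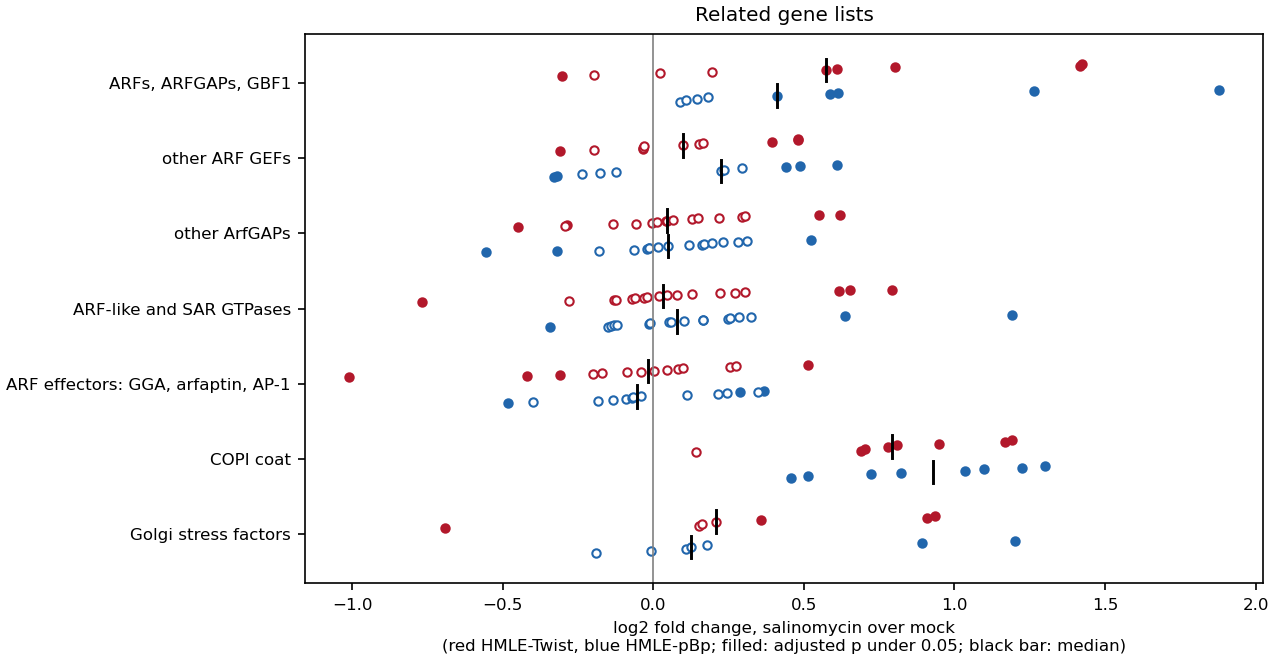
Log2 fold change of salinomycin over mock (horizontal axis) for each tested gene of the 9 described here and of the 6 related lists, in HMLE-Twist (red) and HMLE-pBp (blue). Filled points passed an adjusted p of 0.05 and black bars are medians. The COPI coat lies to the right of 0 as a whole, with medians of 0.79 and 0.93.

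The genes whose level followed ARF4 most closely over the 12 libraries, by Pearson correlation of log2(FPKM + 1), were GOLGA5 (0.989), COG6 (0.987), UFM1 (0.986), GFPT1 (0.982) and BLZF1 (0.977). For ARF1 they were NANS (0.977), COTL1 (0.977), RXRB (0.967), BET1L (0.949) and AP3D1 (0.948). These libraries share lines and treatments, so the correlations only describe which genes had a like pattern.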

How the data were processed

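Per the labels' protocols, total RNA was made into stranded mRNA libraries. The submitters' processing notes name DESeq2 (version 1.1.0) and genome build hg19. No aligner, counter or annotation is stated there. The deposited mock tables hold FPKM scaled within each table. The deposited salinomycin tables hold log2 values, shrunk towards each gene's mean, also scaled within each table. Tables were normalized separately, so levels across treatments rest on recovered reads. Mock values were whole multiples of 1 read for all 12895 genes above 100 mock reads (tolerance 0.02 reads). The log2 shrinkage was inverted, whereupon 98.5% of results in HMLE-Twist and 96.0% in HMLE-pBp lay within 0.1 reads of a whole number. Above 10000 reads those shares were 81.4% and 61.7%. The form of the shrinkage was inferred from the values and its settings fitted to give whole reads, so the shares are no independent check. With salinomycin, ARF4 had 17001 to 17457 reads in HMLE-Twist and 11262 to 20742 in HMLE-pBp, and ARF1 had 10630 to 12894 in HMLE-Twist. A mock length set at a wrong multiple would shift the salinomycin fold change of that gene alike in both lines. 517 genes of unsettled length were left out, COPG2 among them, and no gene described as a member. 7 gene names were not alike across tables.

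FPKM was rebuilt with median-of-ratios size factors over 12 libraries. Genes with FPKM of at least 1 in at least 3 libraries (12047) entered limma 3.58.1 in R 4.3.3 (lmFit, eBayes with trend) on log2(FPKM + 1), 4 groups, no covariate, Benjamini-Hochberg. Fold changes of low genes are understated by the added 1. No count test was the main test, because the deposited values are not counts, and limma-voom on the recovered reads was an alternative. Paralog ratios used exact permutation. Alternatives were pseudocount, filters, scaling, voom, replicate block, lengths, left-out genes and each library. Replicates with the same number deviated together within each line (r 0.433 to 0.721 in HMLE-Twist, 0.229 to 0.599 in HMLE-pBp), so the numbers appear to pair the samples there. The main fit held no block for this. Between the lines, same-numbered replicates had r 0.067 to 0.569 in the mock and 0.035 to 0.598 with salinomycin. What such replicates share was not tested. All 9 members were reported, and from each list the called genes with the largest rises and falls, up to a pair in each direction, except for 1 gene of the ARF-like list that is not reported here. The members and lists were chosen with earlier results of these data known. The labels name no batch.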

Additional observations from a re-analysis of the deposited data

Results flagged for a closer look

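The salinomycin response differed between the lines, by the test of the difference itself, for 3 of the 9 genes, where 13.6% of all genes tested were called. The log2 response of ARFGAP1 in HMLE-Twist minus that in HMLE-pBp was 0.83 (adjusted p = 0.0209 by limma). The same difference was -0.39 for ARFGAP2 (adjusted p = 0.0491) and -0.46 for ARFGAP3 (adjusted p = 0.0435). With the replicate block the adjusted p values were 0.00156, 0.00966 and 0.0127. That block called 3910 of all 12047 genes for the difference, so 3 of 9 genes is about the general share there. The ratio of ARFGAP1 to ARFGAP3 changed in opposite directions in every same-numbered pair, upwards in 3 of 3 HMLE-Twist pairs and downwards in 3 of 3 HMLE-pBp pairs. The log2 change in HMLE-Twist minus that in HMLE-pBp was 1.29, and this difference was not tested.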

How the results depend on the processing

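In all 22 alternatives run for each line, ARF1, ARF4, ARFGAP3 and GBF1 kept their rise and their call in both lines, and ARFGAP1 in HMLE-Twist. With the replicate block within each line, 4888 genes were called in HMLE-Twist against 3191 without it, 4446 against 2304 in HMLE-pBp, and 3910 against 1636 for the difference. ARF6 became called in both lines, and the block changed no other member's call. The number of members whose responses differed was 3, and 1 with no filter or with TPM, and 0 to 3 when single libraries were left out. All-gene counts then ran from 1171 to 3202 in HMLE-pBp, lowest without its mock replicate 3, and from 786 to 2392 for the difference. ARFGAP2 lost the difference call in 14 of 21 alternatives (adjusted p up to 0.122) and ARFGAP3 in 11 (up to 0.118). With a replicate block shared by both lines, added after seeing the data, 7 members were called between the lines in each treatment. Of all 12047 genes, 9563 were called with that block in the mock and 8510 with salinomycin, so 7 of 9 is near the general share. A sign-flip test of the paralog ratios over replicate pairs, also added then, kept the same 9 of 13 calls (adjusted p = 0.0451). These paralog pairs share genes and are not independent. Scaling by total reads moved the median of all genes to 0.13 and 0.14 in the comparisons of the lines. Signs turned for values that were not called. With libraries left out, ARF3 in HMLE-Twist ran from -0.0098 to 0.056, the difference of GBF1 from -0.029 to 0.030 (0.011 with TPM), the difference of ARF6 from -0.072 to 0.119, and ARF4 between lines under salinomycin from -0.13 to 0.27. The ARFGAP1 to ARFGAP3 ratio change ran from -0.115 to 0.076, and that of ARF5 to ARF6 from -0.380 to -0.127, called without HMLE-Twist mock replicate 1. The cause was not tested. With 3 libraries per group, small changes could be missed.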
